A study of Mus musculus with 2 samples.

Results

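The muscle microRNAs, often called myomiRs, are small RNAs that heart and skeletal muscle hold at high levels, and 5 of their mature forms were followed here in cultured vascular smooth muscle cells. The members were chosen by name, as mmu-miR-1a-3p, mmu-miR-206-3p, mmu-miR-133a-3p, mmu-miR-133b-3p and mmu-miR-499-5p (the mouse prefix is left out below), and all 5 are among the 1909 mature microRNAs counted in each library. The cells came from the thoracic aorta of male mice aged 10 to 12 weeks and were grown in DMEM/F-12 medium with 10% fetal bovine serum and antibiotics. The diabetic group was db/db, on the background BKS.Cg-m+/+Leprdb/J, which lacks a working leptin receptor and develops obesity and type 2 diabetes. The control group was db/+, labelled Lepr+/-, so the control mice also carried 1 mutant copy. Each group has 1 library of small RNA reads, and the number of mice or cultures behind a library is not stated in the labels. Every difference below is therefore between 2 libraries, and no test of a difference between genotypes could be made.

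MicroRNAs guide a silencing complex to messenger RNAs, mainly through the seed, bases 2 to 8 of the mature strand. In striated muscle, miR-1 and miR-206 share a seed and favour differentiation of muscle precursors, with miR-206 being largely a skeletal muscle microRNA and miR-1 also a cardiac one. The miR-133 forms are made from hairpins next to those of miR-1 and miR-206 and are known to repress serum response factor. Of the last member, miR-499 sits in a myosin heavy chain gene and is linked to slow fibres and to the heart. In vascular smooth muscle the better known regulators of the contractile state are miR-143 and miR-145, and both miR-1 and miR-133 have been linked to that state as well.

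The mature sequences of the members found in the RefSeq table of GRCm38.p6, 3 of the 5, are shown because the seed separates them into families. Capitals mark the seed, and each is written 5′ to 3′.
miR-206-3p: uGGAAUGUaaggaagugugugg
miR-133b-3p: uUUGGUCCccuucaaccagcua
miR-499-5p: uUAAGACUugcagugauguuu
Each of the 3 has a seed of its own. Of 1679 mature names in that table, 3 hold the seed of miR-206-3p. The table lacks miR-1a-3p, so this search could not count that seed partner. Besides miR-206-3p, the names found are shown for comparison past the seed.
miR-6382: uGGAAUGUaaagagagcacacaag
miR-6349: uGGAAUGUgggaggggcaugcg
The first 10 bases of miR-6382 equal those of miR-206-3p, and 12 of 22 positions counted from the 5′ end without gaps are the same, while miR-6349 shares the first 8 bases and 11 of 22 positions. Both had 0 counts in the db/db library and 0 in the db/+ library. The hairpin of miR-206 is shown next because its strands differed so much in count, with the 5p and then the 3p mature strand in capitals.
Mir206 hairpin, chr1:20679010-20679082, plus strand: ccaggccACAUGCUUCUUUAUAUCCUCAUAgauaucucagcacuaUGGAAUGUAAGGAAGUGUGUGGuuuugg

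The db/db library held 24295112 microRNA counts over 833 detected names, and the db/+ library 25915732 over 881. Levels are given as CPM, counts per 1000000 of these totals, and since each read stands for 1 short mature strand, no length scaling was applied. The let-7 family took 81.3% of counts in db/db and 81.4% in db/+, so all microRNAs outside it share the remainder. Intervals are 95% and cover the counting error of reads only, because 1 library per group holds no measure of variation between mice or cultures. Since reads are PCR copies without molecular identifiers, the intervals may be too narrow even for counting molecules. A count of 0 was taken to allow up to 3 counts, which is 0.123 CPM in db/db and 0.116 CPM in db/+. In such bulk cultures, fewer cells holding a microRNA and less of it per cell cannot be told apart. Whether different mature strands enter a library equally was not tested, so comparisons between microRNAs are of counts.

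The dominant muscle microRNA was miR-206-3p. It had 67163 counts in the db/db library (2764 CPM) and 64085 in the db/+ library (2473 CPM), which placed it 19th and 21st among the detected microRNAs. The ratio of db/db over db/+ was 1.12 (1.11 to 1.13). The level was thus high in both libraries. The size of the difference depended on the scaling, with a ratio of 1.11 to 1.20 under 6 others. Its 6 nearest neighbours by mean level were miR-125b-5p, miR-191-5p, miR-221-3p, miR-25-3p, miR-99b-5p and miR-185-5p, and their ratios ran from 0.738 for miR-185-5p to 1.33 for miR-25-3p. Of the 32 microRNAs with a mean of at least 1000 CPM, 16 had a ratio above 1 and 0 reached 2-fold, and their ratios ran from 0.699 for miR-34c-5p to 1.79 for miR-10a-5p.

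Nearly all reads of the miR-206 hairpin were from its 3p strand, the functional guide. The 5p strand had 0 counts in db/db, where 67163 counts for the hairpin allow a share of up to 0.00447%, and 2 counts in db/+, a share of 0.00312% (0.000378 to 0.0113, Clopper-Pearson). Among 35 hairpins whose 2 arms summed to 10000 counts or more in db/db and in db/+ alike, the median share of the minor arm was 0.0984% in db/db and 0.198% in db/+. In db/+, 4 of these hairpins had a smaller minor share than miR-206, and in db/db no share could be smaller than its 0 counts.

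**Figure D1:**
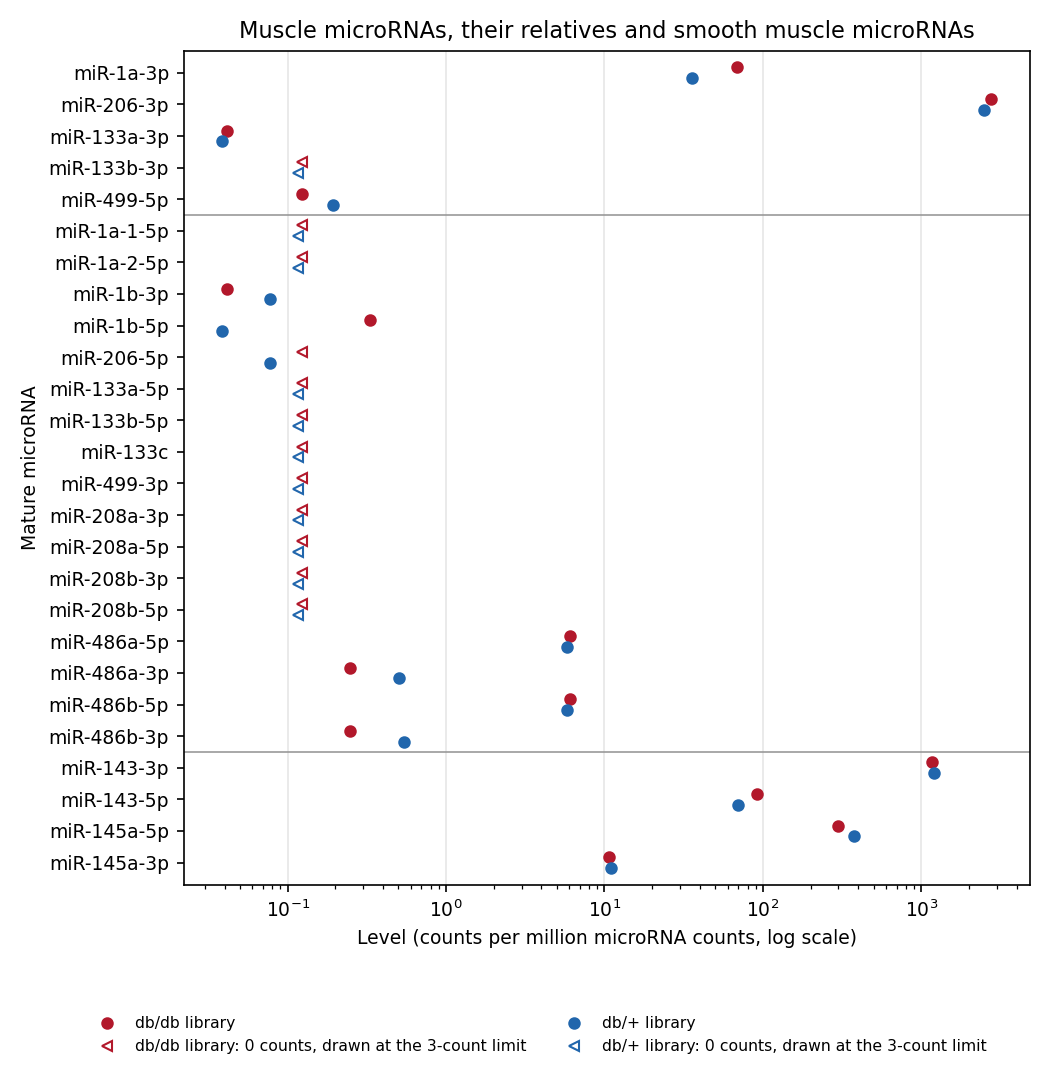
Level in CPM (log axis) of the 5 muscle microRNAs, 17 relatives and 4 smooth muscle microRNAs, with the db/db library in red above the db/+ library in blue; open triangles mark 0 counts, drawn at the limit of 3 counts. miR-206-3p lies at 2764 and 2473 CPM, miR-1a-3p at 68.5 and 35.5 CPM, and the other members lie at or under 0.193 CPM.

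The member that differed most between the libraries was miR-1a-3p, a close sequence relative of miR-206-3p. It had 1664 counts in db/db, or 68.5 CPM (65.2 to 71.9, exact Poisson), and 920 counts in db/+, or 35.5 CPM (33.2 to 37.9). The counting intervals of the libraries did not overlap. The ratio was 1.93 (1.78 to 2.09) and the log2 ratio, with 0.5 counts added, was 0.95. By count it stood 100th of the detected microRNAs in db/db and 130th in db/+.

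The ratio of miR-1a-3p was in the upper part of the range of all microRNAs. Among the 356 with at least 50 counts in a library, 17 had a higher ratio, and the median log2 ratio was -0.14. Its 6 nearest neighbours by mean level, namely miR-28a-3p, miR-365-3p, miR-23a-5p, miR-365-1-5p, miR-15b-5p and miR-155-5p, had ratios from 0.405 for miR-15b-5p to 1.34 for miR-23a-5p, all below that of miR-1a-3p. Of 69 microRNAs with a mean of 20 to 100 CPM, 3 were at least 2-fold higher in db/db, 9 were at least 2-fold lower, and 3 exceeded the ratio of miR-1a-3p.

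A microRNA was called where it was 2-fold higher or lower (a ratio outside 0.5 to 2) and had 50 counts or more in a library. By this rule 0 of the 5 members were called, and 2 of the 5 reached the count floor. Over all microRNAs past the floor the rule called 64 of 356, or 18.0%, with 16 of them (4.49%) higher and 48 (13.5%) lower in db/db. The limit of 2 lay inside the counting interval of miR-1a-3p, and its ratio was between 2.01 and 2.06 under 5 of 6 other scalings, which calls it. The edgeR TMM factors and the deposited TMM factors both gave 2.05 and are in effect the same scaling. With let-7 left out of the totals the ratio of miR-1a-3p was 1.92. A 1.5-fold limit called miR-1a-3p too, beside 37.6% of all microRNAs.

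**Figure D2:**
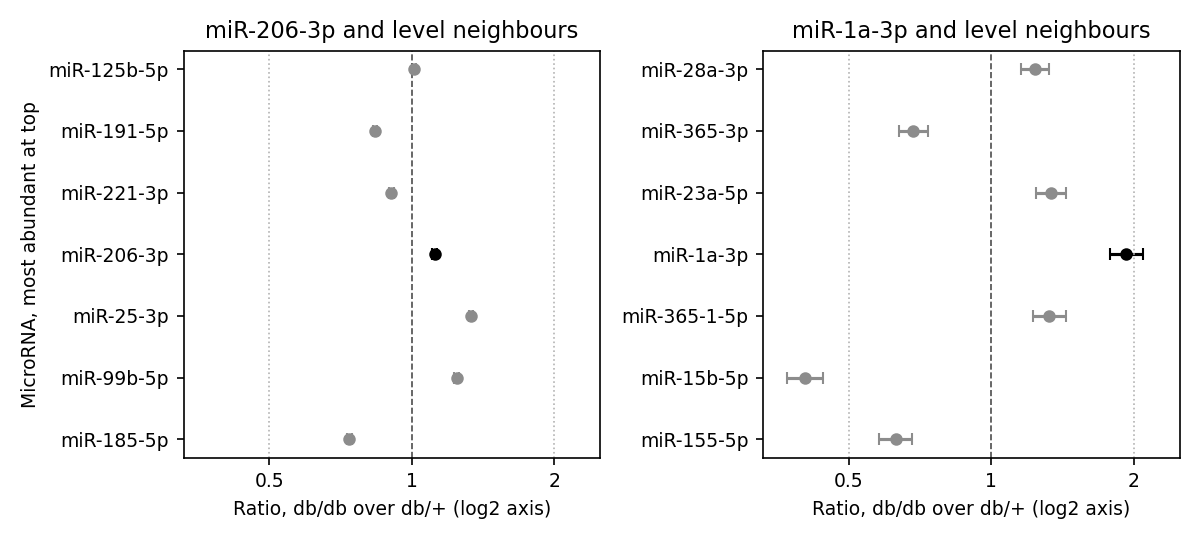
Ratio of db/db over db/+ (log2 axis) for miR-206-3p (left, black) and miR-1a-3p (right, black) with the 3 microRNAs just above and the 3 just below each in mean level (grey), with bars for the 95% counting interval and dotted lines at 0.5 and 2. miR-206-3p, at 1.12, lies among its neighbours, and miR-1a-3p, at 1.93, lies above its 6 neighbours.

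The balance between miR-1a-3p and miR-206-3p was also compared inside each library, which needs no scaling. There were 2.48 counts of miR-1a-3p (2.36 to 2.601) for every 100 of miR-206-3p in db/db, and 1.44 (1.34 to 1.53) in db/+. The odds ratio of db/db over db/+ was 1.73 (1.59 to 1.87, exact conditional interval with reads taken as independent). By these counts miR-1a-3p was higher in db/db relative to its seed partner. Even so, 40.4 counts of miR-206-3p stood against each of miR-1a-3p in db/db (38.4 to 42.4) and 69.7 in db/+ (65.3 to 74.4).

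Summed as 1 seed pool, the pair had 68827 counts in db/db (2833 CPM) and 65005 in db/+ (2508 CPM), a ratio of 1.13 (1.12 to 1.14). Within the summed counts of the 5 members, miR-206-3p held 97.6% in db/db (97.5 to 97.7) and 98.6% in db/+ (98.5 to 98.7). The share of miR-1a-3p was 2.42% in db/db (2.304 to 2.54) and 1.42% in db/+ (1.33 to 1.51).

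Reads that fit several microRNAs can sit on any of them, and the sources used here do not state how such reads were counted. Since miR-1a-3p differs from miR-206-3p at few bases and has far fewer counts, its value is uncertain on that ground, and what part such reads have in its count was not tested. From the antisense hairpin Mir1b, the 3p strand miR-1b-3p had 1 count in db/db and 2 in db/+. The 5p strands named for the hairpins Mir1a-1 and Mir1a-2 had 0 counts in both libraries. The 5p strand of Mir1b had 8 counts in db/db and 1 in db/+, a ratio of 8.53 (1.14 to 379), both far under the floor.

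**Figure D3:**
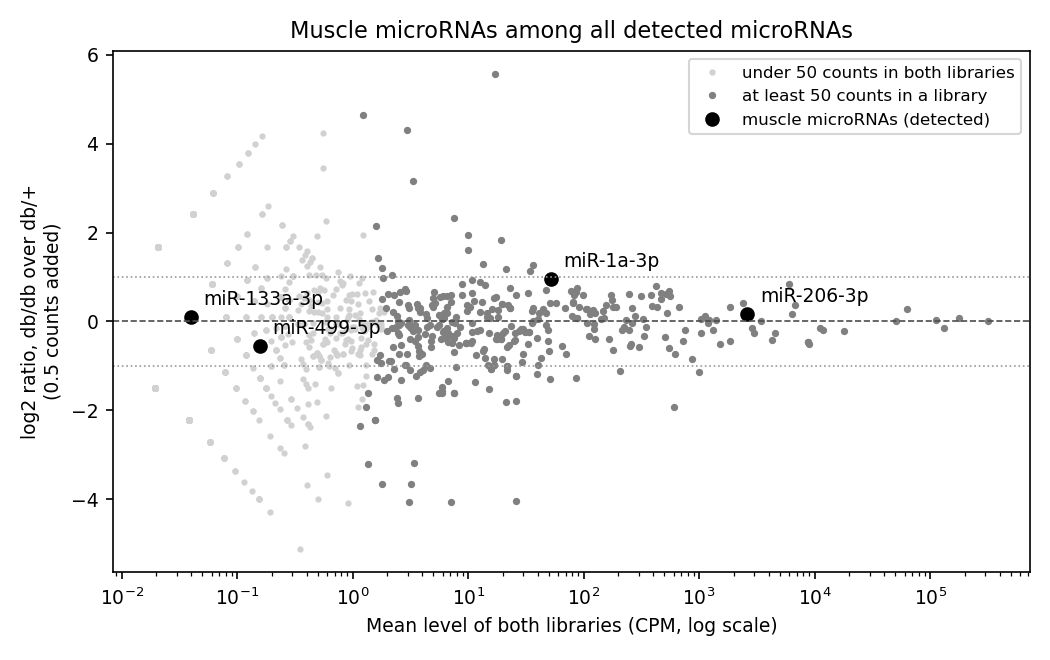
Log2 ratio of db/db over db/+ (0.5 counts added) against mean level in CPM (log axis) for the 967 detected microRNAs, with those of at least 50 counts in a library in dark grey, the others in light grey and the 4 detected muscle microRNAs in black; dotted lines mark 2-fold. miR-1a-3p, at 0.95, lies just under the upper line, miR-206-3p lies at 0.16, and miR-133a-3p and miR-499-5p lie where counts are too few to place a ratio.

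The miR-133 forms were at or near 0, although their hairpins neighbour those of the abundant member and of miR-1a. For miR-133a-3p there was 1 count in each library, which is 0.0412 CPM in db/db and 0.0386 CPM in db/+. The ratio of 1.07 had an interval of 0.0136 to 83.7 and carries no direction. No count was found for miR-133b-3p in either library, nor for miR-133a-5p, miR-133b-5p or miR-133c. Both libraries together thus gave 2 counts for the whole miR-133 family.

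The hairpins of miR-206 and miR-133b lie on chromosome 1 of GRCm38, the assembly also called mm10, on the plus strand. Mir206 runs from 20679010 to 20679082 and Mir133b from 20682769 to 20682887, with 3686 bases between them. Both lie inside the long noncoding RNA gene Gm28653 of GENCODE M21 (20669882 to 20684298), whose start equals that of RefSeq's Lincmd1, a muscle RNA known to bind miR-133 in myoblasts. Mir133b lies whole within an exon of both annotated Gm28653 transcripts. Mir206 overlaps in part an exon of the shorter of these and lies in an intron of the longer. For every count of miR-133b-3p there were at least 22388 of miR-206-3p in db/db and at least 21362 in db/+, with 0 counts taken as 3 in each library.

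That gap was set beside other neighbouring hairpins, a view chosen after the values were seen. In the RefSeq table, 9 pairs of adjacent hairpins on 1 strand, within 10000 bases of each other, had both arms listed, no arm shared with another listed hairpin and at least 10000 counts for the more abundant partner in each library. The RefSeq table lacks some counted names, such as miR-1a-3p, so these 9 pairs are not a full set. The other pairs lay 158 to 1270 bases apart, all closer together than miR-206 and miR-133b, so none matched that pair in spacing. The median fold between partners was 25.7 in db/db and 29.3 in db/+. In 6 of the 9 pairs the partners were within 100-fold in both libraries. The pair with the next widest gap was Mir191 and Mir425, at 197-fold in db/db and 187-fold in db/+, and miR-206 with miR-133b was the only pair of the 9 with a partner at 0 counts in both libraries.

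**Figure D4:**
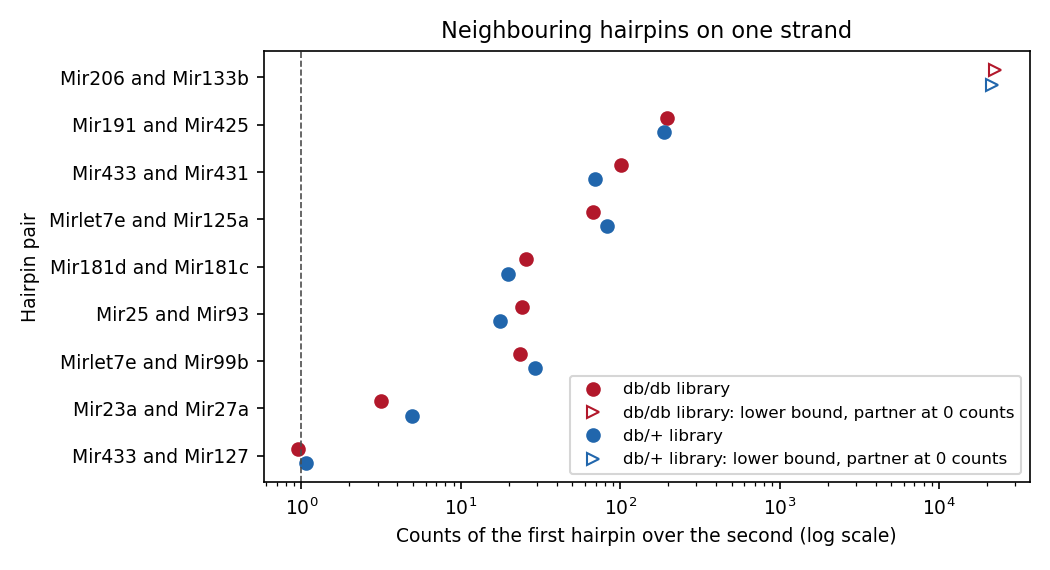
Counts of the first hairpin over the second (both arms summed, log axis) for 9 pairs of neighbouring hairpins, with the db/db library in red and the db/+ library in blue; open triangles are lower bounds with 0 counts taken as 3. Mir206 and Mir133b lie at 22388 and 21362, and the other 8 pairs lie between 0.958 and 197.

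The gap was also wide between miR-1a-3p and miR-133a-3p, which are made from paired hairpins. On chromosome 2, Mir1a-1 runs from 180389048 to 180389124 and Mir133a-2 from 180398379 to 180398482, both on the plus strand with 9254 bases between them. The quotient of their mature 3p forms was 1664 in db/db (298 to 65764) and 920 in db/+ (165 to 36377). Each name can also be made from a further hairpin elsewhere in the genome, so these counts cannot be assigned to 1 locus.

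Of the cardiac and slow-fibre forms, miR-499-5p had 3 counts in db/db (0.123 CPM) and 5 in db/+ (0.193 CPM). The ratio of 0.640 had an interval of 0.0994 to 3.29, so no difference was detectable at this depth. Its hairpin Mir499 lies on chromosome 2 from 155622880 to 155622958 on the plus strand, in an intron of Myh7b (155611212 to 155634307), which encodes a myosin heavy chain. The 3p strand, and both arms of miR-208a and miR-208b, the microRNAs of the cardiac myosin genes, had 0 counts in both libraries. In order of level the members ran miR-206-3p, miR-1a-3p, miR-499-5p, miR-133a-3p and miR-133b-3p in each library, and the last 3 had overlapping counting intervals (0.0255 to 0.361 CPM for miR-499-5p and 0.00104 to 0.229 CPM for miR-133a-3p in db/db).

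Across 17 further names of the striated muscle group, made up of the other arms and paralogs together with miR-208 and miR-486, 10 had 0 counts in both libraries and 2 reached the floor. The 5p strands of miR-486a and miR-486b were the 2, and they had the same 147 counts in db/db and 150 in db/+ and so count as 1 measurement, with a ratio of 1.05 (0.827 to 1.32). Beside the 18.0% of all microRNAs, 0 of these 2 reached 2-fold. Since miR-486 is also abundant in red blood cells, its level does not mark muscle alone. The whole list summed to 13.0 CPM in db/db and 12.8 CPM in db/+, far under miR-206-3p by itself. These sums enter the equal 5p counts of miR-486a and miR-486b under each name, so they overstate the level of the list.

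The smooth muscle microRNAs were present in both libraries. Counts of miR-143-3p were 28364 in db/db (1167 CPM) and 31153 in db/+ (1202 CPM), and of miR-145a-5p 7207 in db/db (297 CPM) and 9674 in db/+ (373 CPM). Both had fewer counts than miR-206-3p, which had 2.37 times the counts of miR-143-3p in db/db (2.34 to 2.401) and 2.06 times in db/+ (2.03 to 2.09). Against miR-145a-5p the quotient was 9.32 in db/db (9.095 to 9.55) and 6.62 in db/+ (6.48 to 6.77). All 4 arms passed the floor, 1 with a ratio above 1 and 3 below, with a median log2 ratio of -0.04. Beside the 18.0% of all microRNAs past the floor, 0 of these 4 reached 2-fold, and so few names cannot be told from that share.

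Markers of other cells were low, and the endothelial and epithelial sums were higher in db/db. The 2 endothelial names summed to 2.92 CPM in db/db and 0.2701 CPM in db/+. They were led by miR-126a-5p in db/db (58 counts against 2) and by miR-126a-3p in db/+ (5 counts, with 13 in db/db). The 6 blood names summed to 0.6997 CPM in db/db and 0.695 CPM in db/+, led by miR-451a with 14 and 17 counts, and miR-144-3p, miR-223-3p and miR-142a-3p were at 0 in both. The 7 epithelial names summed to 1.19 CPM in db/db (29 counts) and 0.463 CPM in db/+ (12 counts). They were led by miR-200a-3p in db/db with 12 counts and by miR-203-3p in db/+ with 5. Of the 7, 0 passed the floor, and miR-141-3p (0 counts in db/db, 2 in db/+) and miR-205-5p (0 and 1) were higher in db/+. Each of these sums is far below the 2764 and 2473 CPM of miR-206-3p. Their part in the difference of miR-1a-3p was not tested.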

How the data were processed

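Of cultured aortic smooth muscle cells, 1 db/db and 1 db/+ small RNA library were analysed. Libraries were made by a standard Illumina protocol from column-purified total RNA, per the labels' protocols. Novoalign, edgeR and mm10 are named in the submitters' processing notes, without versions or roles. Trimming, the microRNA catalogue and the handling of multiply matching reads are not stated in the sources used here. The authors deposited raw read counts for 1909 mature microRNAs per library, per the file headers. They also deposited TMM normalized reads, whole numbers treated here as a score, which equalled the raw counts times 1.06 in db/db and 0.939 in db/+ to within 2 reads and which served 1 alternative scaling.

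Totals were 24295112 counts in db/db and 25915732 in db/+. CPM, exact conditional ratio intervals, Clopper-Pearson shares and Poisson level intervals were computed with Python 3.11.15 and scipy 1.17.1. With 1 library per group no residual degrees of freedom remained, so edgeR's quasi-likelihood model was not run and no p-value is given. A difference was instead called at 2-fold with a floor of 50 counts in a library. Alternative scaling factors came from edgeR 4.0.16 and DESeq2 1.42.0 in R 4.3.3. Computations were tested on simulated counts. Sequences were from RefSeq (GRCm38.p6) and gene positions from GENCODE M21, counted from 1.

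The members and lists were chosen with earlier results of these data known. Named microRNAs were the members, 17 relatives, 3 neighbours by mean CPM on each side of miR-206-3p and miR-1a-3p, 4 smooth muscle names and the leading name of each endothelial, blood and epithelial list; others were chosen after their values were seen.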

Additional observations from a re-analysis of the deposited data

How the results depend on the processing

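Scaling moved every log2 ratio by -0.01 to 0.10, so it decided the 2-fold call of miR-1a-3p and moved miR-206-3p beyond its narrow counting interval. The ratio of miR-206-3p was 1.19 with edgeR TMM, DESeq2 and deposited TMM factors, 1.20 with upper-quartile factors and 1.16 without the 10 most abundant microRNAs, and 1.11 without let-7. The count of members at 2-fold was 0 as reported and 1 (miR-1a-3p) under each of the first 5 of these, and 1 under a 1.5-fold rule. Of all microRNAs past the floor, 18.0% were called as reported, 17.1% to 18.0% under those 5 scalings and 37.6% under the 1.5-fold rule. The count of members was 0 without let-7, beside 18.8% of all microRNAs. It was also 0 at floors of 10, 100 and no counts, beside 24.8%, 15.6% and 44.5% of all microRNAs. For the 17 relatives the count was 0 as reported. At a floor of 10 counts it was 2 of the 4 past it, beside 24.8% of all microRNAs. These were the 3p strands of miR-486a and miR-486b, with nearly equal counts (6 and 6 in db/db, 13 and 14 in db/+). With no floor it was 4 of 7 (miR-1b-5p and miR-206-5p besides), beside 44.5% of all microRNAs. The ratios of miR-1a-3p (1.92 to 2.06), miR-133a-3p (1.06 to 1.14) and miR-499-5p (0.636 to 0.685) stayed inside their counting intervals under the 6 other scalings. With 0.1 or 5 counts added, all log2 ratios of the 4 detected members kept their sign. Deposited TMM factors were added after the data were seen and in effect repeat the edgeR TMM factors, with a log2 shift of 0.0875 for both. Depth limits miR-133a-3p and miR-499-5p, whose 5 or fewer counts cannot place a ratio. No paired analysis was possible because there is 1 library per genotype, and for that reason no library could be left out.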
